A study of Mus musculus with 4 samples.

Results

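Albumin, alpha-fetoprotein and 8 other plasma carrier and secreted proteins (Alb, Afp, Gc, Ttr, Trf, Rbp4, Ahsg, Fetub, Hpx and Spp2) were measured by RNA sequencing in cultured mouse aorta-gonad-mesonephros (AGM) tissue, the embryonic site where blood stem cells first form. The 10 genes are 10 of the 49997 genes in the count tables. They were chosen from their names and from their levels in these same libraries, including the gap between the CCCP libraries, so every level and every difference between the groups given for them is a description and carries no test. There were 2 untreated libraries and 2 libraries from explants treated with 5 µM CCCP, a protonophore that dissipates the proton gradient across the inner mitochondrial membrane. All explants were C57BL/6J and were cultured for 48 hours on a membrane filter at the gas-liquid interface, in medium with hydrocortisone, a glucocorticoid. The labels name E10.5 and E11.5 embryos in one place and E10.5 alone in another, and they name c-kit+ stem cells in one place and RNA of whole explants in another. They give neither the number of embryos behind a library nor whether the libraries came from separate cultures, so the tests measure the spread between these libraries, which may be technical.

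Most plasma proteins of the fetus are made by hepatoblasts of the liver bud and by the visceral endoderm of the yolk sac. Alb, Afp and Gc belong to the albumin family, which arose by gene duplication. Albumin carries fatty acids and many other small molecules, alpha-fetoprotein is its abundant fetal relative, and Gc is the vitamin D binding protein. Transferrin (Trf) carries iron and hemopexin (Hpx) carries haem. Rbp4 carries retinol and travels in plasma bound to transthyretin (Ttr), which also carries thyroid hormone. Ahsg and Fetub are the fetuins, and Spp2 (secreted phosphoprotein 24) is a smaller protein of the cystatin-like fold that is also found in bone. None of the 10 is a product of blood stem cells.

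The libraries held between 37360968 and 48827826 counted reads. All 10 genes passed the filter on low counts. Alb, Gc, Ahsg and Spp2 did so only with the help of the untreated libraries, since at most 1 of their CCCP libraries reached the filter's count, so these 4 could be tested only because the untreated libraries were high. Transcripts of the labelled cells and tissue were present in all 4 libraries. The stem cell factor receptor Kit, like Ptprc and Gfi1 named outside the rule for named genes, stood at 51.3 and 63.2 CPM (counts scaled to library size) untreated and 47.6 and 51.7 with CCCP, and the vascular cadherin Cdh5 at 138 and 177 against 144 and 134, in the order replicate 1, replicate 2 used throughout. Ptprc, the pan-leukocyte surface phosphatase, was lower, at 6.85 and 6.82 CPM untreated and 3.65 and 3.39 with CCCP. Its log2 fold change was -0.96, with an adjusted p of 0.217 in edgeR and 0.0459 in DESeq2. Gfi1, a factor of emerging blood cells, had at most 12 counts in any library.

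The RefSeq promoters of build GRCm38.p6, the assembly behind mm10, were matched for 8 of the 10 genes, all except Ttr and Trf. The 250 bases before each start were searched on both strands for binding motifs of liver-enriched factors and for CCAAT, and the last 50 bases, on the gene's strand, for TATAAA. The motif of C/EBP factors (TTGCNNAA), basic leucine zipper proteins active in liver, was found in Alb, Afp, Ahsg and Hpx. It occurred in 9.56% of the 32851 promoters in the table. A match is a description of letters and not evidence of binding. The 150 bases before the start are shown for Alb, Afp and Ahsg, which hold this motif there, and for Fetub, which lies beside Ahsg. In Hpx the match lies further from the start, at -200 to -193, and its CCCP libraries were 1.92-fold apart. The levels of these genes were known when the windows were picked, and a link between motif and level was not tested. Capitals mark TTGCNNAA on either strand and, in the last 50 bases, TATAAA.
Alb: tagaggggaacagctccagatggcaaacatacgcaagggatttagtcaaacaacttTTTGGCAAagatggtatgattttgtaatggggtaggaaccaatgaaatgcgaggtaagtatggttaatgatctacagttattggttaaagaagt
Afp: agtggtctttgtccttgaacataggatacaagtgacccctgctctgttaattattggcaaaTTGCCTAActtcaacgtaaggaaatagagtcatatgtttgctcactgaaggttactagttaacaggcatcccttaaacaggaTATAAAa
Ahsg: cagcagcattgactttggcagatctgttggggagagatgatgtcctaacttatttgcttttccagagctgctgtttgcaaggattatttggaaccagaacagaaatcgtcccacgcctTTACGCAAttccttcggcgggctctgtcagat
Fetub: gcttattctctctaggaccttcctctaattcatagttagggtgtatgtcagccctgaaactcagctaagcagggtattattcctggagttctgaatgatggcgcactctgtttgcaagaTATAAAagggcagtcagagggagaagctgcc
These windows are chr5:90460720-90460869 (Alb), chr5:90490564-90490713 (Afp), chr16:22891865-22892014 (Ahsg) and chr16:22918232-22918381 (Fetub), all on the plus strand.

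Other motifs were spread differently over the 8 promoters. The HNF4A motif (CAAAGTCCA, up to 1 mismatch), in 7.05% of all promoters, was in Afp, Ahsg and Hpx. The FOXA motif TGTTTAC, in 3.17%, was in Rbp4 alone among the 8, and CCAAT, in 33.8%, was in 6 of them. TATAAA within 50 bases of the start, in 2.63%, was in Afp and Fetub. The promoter of Spp2 held none of these motifs, and no match in the 8 promoters overlapped a match of another motif.

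Afp was the most abundant of the 10 transcripts in untreated explants and Alb the second. Afp (mm10 chromosome 5, 90490714 to 90508907) had 860 and 577 CPM untreated, against 1.69 and 44.9 CPM with CCCP. Alb (chromosome 5, 90460870 to 90476602) had 376 and 151 CPM untreated and 0.165 and 11.1 CPM with CCCP, on 8 and 404 counts. Both CCCP libraries thus lay far below both untreated libraries, and they lay far from each other. The highest CCCP library was 12.9-fold below the lowest untreated library for Afp and 13.6-fold below it for Alb. The log2 fold change of CCCP over untreated was -4.96 with a standard error (SE) of 1.31 for Afp and -5.59 (SE 1.37) for Alb. It depended on which CCCP library was used: without replicate 2 it was -8.72 for Afp and -10.6 for Alb, and without replicate 1 it was -3.995 and -4.56. In bulk RNA such as this, fewer cells of a type and less RNA per cell cannot be told apart.

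The other member of the family was scarce. Gc (chromosome 5, 89417511 to 89457898) had 2.54 and 1.60 CPM untreated and 0.247 and 0.110 CPM with CCCP, the latter on 12 and 4 counts. All untreated values were above all CCCP values, with a log2 fold change of -3.48 (SE 0.574), or -4.19 without CCCP replicate 1. The CCCP libraries stood in the opposite order to those of Alb and Afp, with replicate 2 at 0.446 of replicate 1, but the interval of that ratio (0.105 to 1.47) includes equality.

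Trf, the iron carrier, had the smallest difference of the 9 genes that were lower with CCCP. Trf (chromosome 9, 103208876 to 103230286) had 260 and 132 CPM untreated and 47.1 and 38.3 CPM with CCCP. Its untreated libraries differed 1.97-fold, its CCCP libraries by far less, with replicate 2 at 0.812 of replicate 1 (0.759 to 0.869). The log2 fold change was -2.20 (SE 0.325), and -1.61 without untreated replicate 1, against -2.58 without untreated replicate 2. Hpx, the haem carrier (chromosome 7, 105591611 to 105600116), had 4.33 and 3.21 CPM untreated and 0.330 and 0.634 CPM with CCCP, on 16 and 23 counts, a log2 fold change of -2.98 (SE 0.454).

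The retinol and thyroid hormone carriers were lower in both CCCP libraries, Ttr 13.0-fold and Rbp4 5.81-fold by the group means. Ttr (chromosome 18, 20664209 to 20674326) had 16.2 and 8.16 CPM untreated and 0.824 and 1.05 CPM with CCCP. Its log2 fold change was -3.71 (SE 0.419), and -3.12 without untreated replicate 1. Rbp4 (chromosome 19, 38116620 to 38125321) had 32.9 and 25.0 CPM untreated and 3.34 and 6.62 CPM with CCCP. Its log2 fold change was -2.55 (SE 0.353). For neither gene did the groups overlap, and the CCCP libraries were at most 1.98-fold apart.

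The 2 fetuin genes went opposite ways although they are neighbours. Ahsg (chromosome 16, 22892015 to 22899451), which encodes fetuin-A, an inhibitor of calcification, had 67.0 and 23.1 CPM untreated. With CCCP it had no count in replicate 1 and 106 counts, or 2.92 CPM, in replicate 2. A count of 0 allows up to 0.0618 CPM (3 counts) in that library, so Ahsg was there at least 729-fold below the untreated mean, and in CCCP replicate 2 it was 15.4-fold below it. The log2 fold change was -5.03 (SE 1.31), and -3.94 without CCCP replicate 1. Fetub (chromosome 16, 22918382 to 22939768), which encodes fetuin-B and starts 18.9 kb beyond the end of Ahsg, had 0.400 and 0.267 CPM untreated and 0.412 and 0.937 CPM with CCCP. These values rest on 10 to 34 counts, the intervals of untreated replicate 1 (0.244 to 0.617 CPM) and CCCP replicate 1 (0.252 to 0.636 CPM) nearly coincide. Its log2 fold change was 0.99 (SE 0.648). Without CCCP replicate 2 it was 0.30.

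Spp2 (chromosome 1, 88406966 to 88428300) was low but even. It had 2.40 and 2.49 CPM untreated, on 120 and 93 counts, and 2 counts in each CCCP library. Over the pooled libraries of each group the untreated level was 51.6-fold the CCCP level, with an interval of 19.9 to 191 from counting alone. Spp2 was the gene with the closest untreated replicates, at a ratio of 0.964 (0.729 to 1.28).

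**Figure D1:**
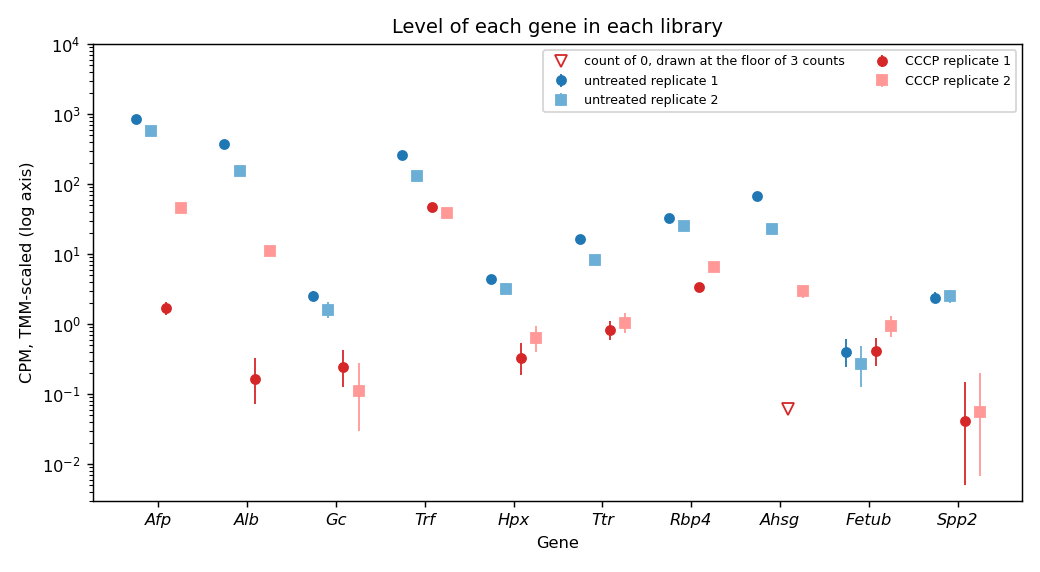
CPM of the 10 genes (horizontal axis) in each of the 4 libraries on a log axis; points are single libraries, bars are exact 95% counting intervals, and the open triangle is the count of 0 of Ahsg drawn at the floor of 3 counts. For 9 genes both CCCP points lie below both untreated points, and for Alb, Afp and Ahsg the CCCP points are far apart.

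Both CCCP libraries lay below both untreated libraries for 9 of the 10 genes. Across the 19837 genes tested that order was seen in 24.8%, and the reverse order, that of Fetub, in 24%. A log2 fold change of -2 or lower, which 1.24% of all genes tested had, was found for the same 9 genes. The median log2 fold change of the 10 was -3.59, against -0.01 over all genes tested. Since values of this kind chose the genes, the shares are a background and nothing is read from them. The summed level of the 10 genes was 1622 and 924 CPM untreated and 54.1 and 107 CPM with CCCP.

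The gap between the CCCP libraries was widest for Alb, Ahsg and Afp. Alb was 67.6-fold higher in CCCP replicate 2 than in replicate 1, with an interval of 34.0 to 158. Afp was 26.5-fold higher (21.3 to 33.6), and Ahsg at least 47.3-fold. A gap of at least 4-fold in this direction was found in 0.998% of all genes tested, and the opposite gap in 1.47%. Ordered by the gap from the highest, Alb took rank 1, Ahsg 2 and Afp 4 of 19837. The other genes with at least 3 counts in a CCCP library stayed within 2.28-fold. In the same order Fetub took rank 599, Rbp4 861, Hpx 915, Ttr 3143, Trf 15631 and Gc 18748. The gap was among the values that chose the genes, so nothing is read from the ranks. Rbp4 was 1.98-fold higher in replicate 2 (1.62 to 2.43), Fetub 2.28-fold (1.27 to 4.17), Hpx 1.92-fold (0.973 to 3.90) and Ttr 1.27-fold (0.793 to 2.03), while Gc and Trf were higher in replicate 1.

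**Figure D2:**
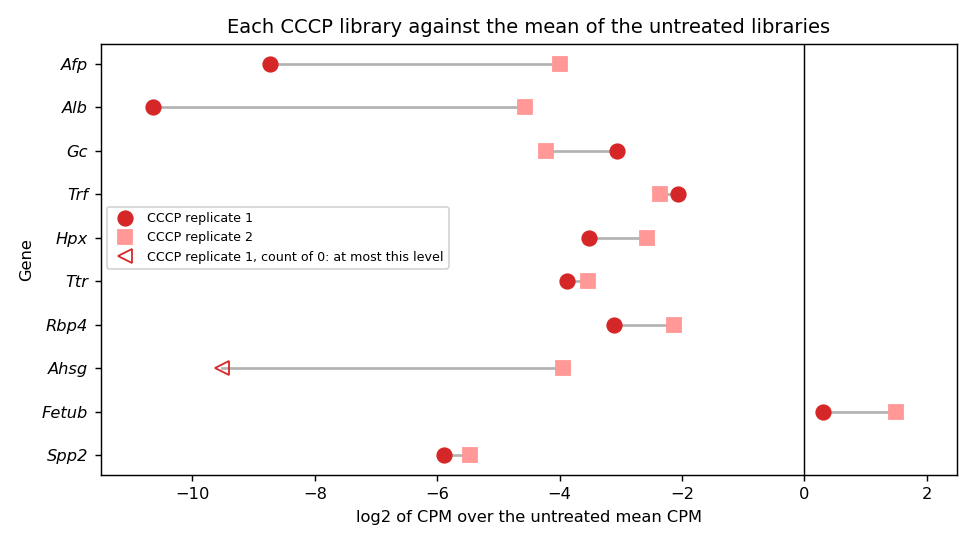
Level of each gene in each CCCP library as log2 of its CPM over the mean CPM of the untreated libraries (horizontal axis; 0 is the untreated mean); grey lines join the libraries, and the open triangle is an upper limit. Alb, Afp and Ahsg lie 3.95 to 4.57 below the untreated mean in replicate 2 and 8.73 or more below it in replicate 1, while the other genes keep both libraries within 1.19 of each other.

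The untreated libraries differed too, in the other order of numbers. Replicate 1 was the higher one for 9 of the 10 genes, against 49.8% of all genes tested. The ratio of replicate 1 to replicate 2 was 2.90 for Ahsg, 2.49 for Alb, 1.98 for Ttr, 1.97 for Trf, 1.58 for Gc, 1.49 for Afp, 1.35 for Hpx and 1.32 for Rbp4. Fetub had 1.49 on 20 and 10 counts, and Spp2 was the exception. A ratio of 2 or more, as for Ahsg and Alb, was found in 7.26% of all genes tested. In CCCP, replicate 2 was the higher one for 7 of the 9 genes with at least 3 counts in a library, against 52.3% of all genes tested. The library with the higher level was thus replicate 1 in one group and replicate 2 in the other for most of these genes.

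The proportions among the 10 transcripts differed between libraries. Within a library, ratios between genes do not depend on library scaling. Afp gave 2.28 counts per count of Alb in untreated replicate 1, 3.82 in untreated replicate 2 and 4.03 in CCCP replicate 2, where the interval (3.61 to 4.50) holds the value of untreated replicate 2. In CCCP replicate 1 the ratio was 10.3 (4.97 to 24.5) on 8 counts of Alb. Ahsg gave 0.178 and 0.153 counts per count of Alb untreated and 0.262 (0.210 to 0.326) in CCCP replicate 2, above both. Per count of Afp it gave 0.0780 and 0.0401 untreated and 0.0652 in CCCP replicate 2, between them. In that library Afp, Ahsg and Alb stood 16.02-fold, 15.4-fold and 23.7-fold below their untreated means.

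Trf, Rbp4, Hpx and Fetub took larger shares in both CCCP libraries. Trf gave 0.303 and 0.228 counts per count of Afp untreated, 0.853 in CCCP replicate 2 and 27.9 in CCCP replicate 1. Rbp4 gave 0.0383 and 0.0432 untreated, 0.148 in CCCP replicate 2 and 1.98 in CCCP replicate 1. Hpx gave 0.00504 and 0.00556 untreated, 0.0141 in CCCP replicate 2 and 0.195 in CCCP replicate 1. Fetub, on 10 to 34 counts, gave 0.000465 and 0.000463 untreated, 0.0209 in CCCP replicate 2 and 0.244 in CCCP replicate 1. Ttr gave 0.0188 and 0.0141 untreated, 0.0234 in CCCP replicate 2, where the interval (0.0165 to 0.0322) holds the first of these values, and 0.488 in CCCP replicate 1. Gc and Spp2 gave 0.00246 and 0.00123 counts per count of Afp in CCCP replicate 2, on 4 and 2 counts. The intervals (0.000669 to 0.00631 and 0.000149 to 0.00445) hold the untreated values of each gene. As a result Alb and Afp made up 76.2% and 78.8% of the counts of the 10 genes in the untreated libraries, 52.5% in CCCP replicate 2 and 3.43% in CCCP replicate 1, where Trf alone made up 87.0%. Without Alb and Afp the summed level of the other 8 genes was 386 and 196 CPM untreated and 52.3 and 50.6 CPM with CCCP. Most of the CCCP sums was Trf (47.1 and 38.3 CPM), which like Gc (0.247 and 0.110) was higher in replicate 1. Rbp4 (3.34 and 6.62) and Ahsg (0 and 2.92) were higher in replicate 2, so the near equality of the sums does not hold gene by gene.

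**Figure D3:**
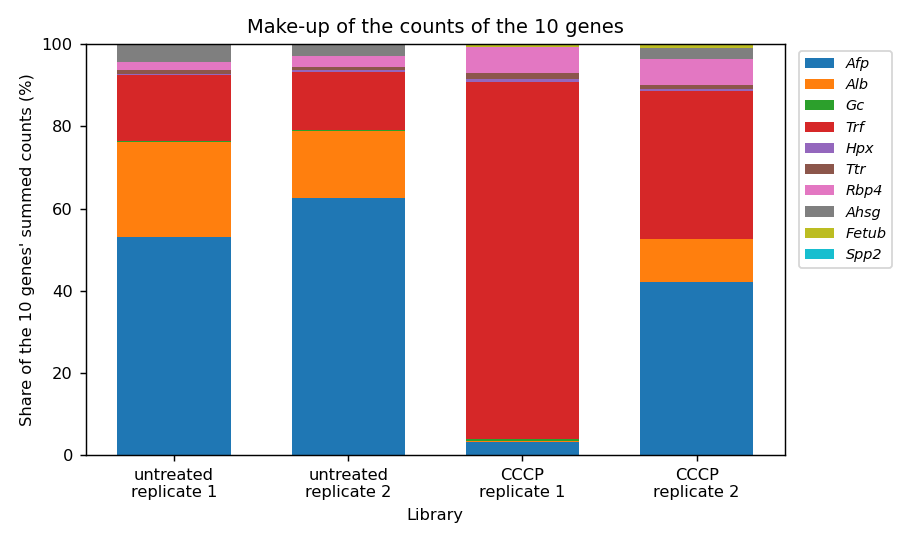
Share of each gene in the summed counts of the 10 genes (percent, stacked to 100) in each library. Alb and Afp fill 76.2% and 78.8% of the untreated bars and 52.5% of CCCP replicate 2, and Trf fills 87.0% of CCCP replicate 1.

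Per length of exon the order of levels in the untreated libraries was Afp, Alb, Trf, Ahsg, Rbp4, Ttr. Per kilobase, Afp stood at 412 and 277 CPM and Alb at 183 and 73.3 CPM. Trf followed with 112 and 56.5 CPM per kilobase, then Ahsg with 44.3 and 15.3, Rbp4 with 25.4 and 19.3 and Ttr with 12.3 and 6.19. The ranges of Alb and Trf overlapped, but within each untreated library Alb was above Trf. Ahsg was above Rbp4 in replicate 1 and below it in replicate 2, so the order of Ahsg and Rbp4 is not fixed beyond the spread of the replicates. Hpx (2.93 and 2.17), Spp2 (2.45 and 2.54) and Gc (1.40 and 0.885) followed, Hpx and Spp2 overlapping, and Fetub was lowest at 0.224 and 0.150. In the CCCP libraries Trf was first in replicate 1, at 20.2 CPM per kilobase, while Afp was first in replicate 2, at 21.5, ahead of Trf at 16.4.

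The genes that flank the 10 were read to see whether whole chromosomal stretches moved. Alb ends 14.1 kb before Afp, and Afp ends 10.0 kb before Afm, while Gc lies about 1003 kb away from Alb on the other strand. Of 16 nearest tested neighbours that are not themselves among the 10 genes, 13 had log2 fold changes between -0.51 and 0.50. Ankrd17, 92.2 kb before Alb, had 275 and 257 CPM untreated and 215 and 217 CPM with CCCP. Dnajb11, an endoplasmic reticulum co-chaperone 12.4 kb before Ahsg, had 114 and 98.7 CPM untreated and 150 and 151 CPM with CCCP. Srprb, a subunit of the signal recognition particle receptor 6.8 kb from Trf, had 58.5 and 67.5 CPM untreated and 87.0 and 88.5 CPM with CCCP. For Dnajb11 and Srprb the CCCP values were all higher than the untreated values, with edgeR adjusted p-values of 0.217 and 0.227, beside genes that were lower.

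The other 3 neighbours were lower with CCCP. Afm, the vitamin E binding protein of the albumin family, had 0.819 and 1.12 CPM untreated and 0.165 and 0.110 CPM with CCCP. Its log2 fold change was -2.77, with an edgeR adjusted p of 0.186. Kng1, which encodes kininogen and follows Fetub after 118.5 kb, had 11.1 and 5.59 CPM untreated, no count in CCCP replicate 1 and 0.496 CPM in CCCP replicate 2. Pde6c, 7.5 kb beyond Rbp4, had 29 and 23 counts untreated and 0 and 2 counts with CCCP. The family members Albfm1, Hrg and Kng2 had at most 7 counts in any library and were not tested.

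Other genes for plasma carriers and liver-secreted proteins, 24 in the list, were read to place the 10 among their kind; 14 of them were tested. No gene of the series passed the adjusted threshold in edgeR (0 of 19837), so none of the 14 did, although 10 were lower and 2 higher at an unadjusted p under 0.05, where 9.16% of all genes were lower and 5.45% higher. DESeq2 called 7 of the 14, all lower, where it called 2.99% of all genes and 2.7% as lower. Both CCCP libraries lay below both untreated libraries for 11 of them and above for 2, against 24.8% and 24% of all genes tested. The median log2 fold change of the 14 was -2.96. Serpina6, the corticosteroid carrier, had 37.3 and 30.6 CPM untreated and 0.0824 and 0.662 CPM with CCCP, and was named after its values were seen. The 3 most abundant genes of the list had small differences. The growth factor carriers Igfbp4 (log2 fold change 0.36) and Igfbp2 (0.38) and the selenium carrier Selenop (-0.59) had edgeR adjusted p-values of 0.325, 0.322 and 0.202. In DESeq2 the adjusted p-values were 0.189, 0.270 and 0.0331, so Selenop was among the genes it called.

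Most genes of hepatoblasts and hepatocytes outside the 10 were lower with CCCP too. Of 15 in the list 12 were tested. At an unadjusted p under 0.05 there were 10 lower and 0 higher, against 9.16% and 5.45% of all genes tested. DESeq2 called 8 lower, where it called 2.7% of all genes lower. The median log2 fold change of the 12 was -4.44, or -6.02 without CCCP replicate 2. The summed level of the list was 275 and 172 CPM untreated and 11.9 and 33.4 CPM with CCCP. Apob, the apolipoprotein of large lipoproteins, had 83.1 and 40.3 CPM untreated and 0.206 and 3.28 CPM with CCCP. Fgb, a fibrinogen chain, had 39.8 and 24.3 CPM untreated and 0.0824 and 1.49 CPM with CCCP, and Fga had 41.6 and 28.5 CPM untreated, no count in CCCP replicate 1 and 1.13 CPM in CCCP replicate 2. A gap of at least 4-fold between the CCCP libraries in the direction of Alb was found for 5 of the 12, against 0.998% of all genes tested. F2 (prothrombin), named after its values were seen like the next 2 genes, had no such gap, with 6 counts in each CCCP library against 762 and 227 untreated. Arg1 and Vil1, at log2 fold changes of 0.43 and 0.74, were the exceptions. This list moved with the 10 genes, and its part in their levels was not tested.

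**Figure D4:**
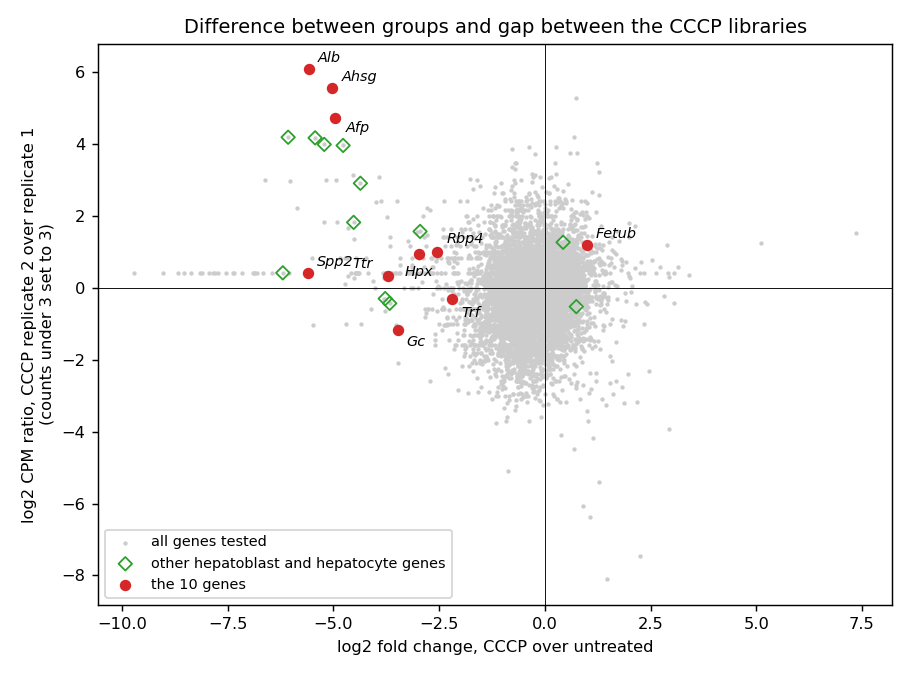
Each point is 1 of the 19837 genes tested, placed by its log2 fold change of CCCP over untreated (horizontal) and by the log2 CPM ratio of CCCP replicate 2 over replicate 1 (vertical, counts under 3 set to 3). Alb, Ahsg and Afp (red) stand at the upper left with 5 other hepatoblast and hepatocyte genes (green) at or above 2. Ttr, Hpx, Rbp4, Trf and Gc are low with CCCP and lie between -1.17 (Gc) and 0.99 (Rbp4) on the vertical axis.

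Among regulators of liver genes most differences were small, with exceptions that include Hnf4a and Foxa3. Of 19 in the list 18 were tested, with a median log2 fold change of -0.41. At an unadjusted p under 0.05 there were 5 lower and 0 higher, against 9.16% and 5.45% of all genes tested. DESeq2 called 3 lower, where it called 2.7% of all genes lower. The most abundant genes of the list were Zfhx3, a repressor of Afp (log2 fold change -0.43), Tbx3 (-0.04) and Prox1 (-0.71), with edgeR adjusted p-values of 0.544, 0.91 and 0.23. The next 5 genes were named for their known roles after the values were seen. Hnf4a had 8.97 and 8.32 CPM untreated and 2.45 and 1.82 CPM with CCCP, and Foxa3 had 1.04 and 1.76 CPM against 0.124 and 0.276. Their log2 fold changes were -2.01 and -2.82. The adjusted p-values were 0.1439 and 0.1955 in edgeR and 4.37e-07 and 0.0235 in DESeq2. Cebpa stood higher with CCCP, at 11.6 and 9.70 CPM against 8.49 and 7.73. Of the genes known to keep Afp low after birth, Zhx2 overlapped between groups (log2 fold change 0.13) and Zbtb20 lay below (-0.84).

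Receptors and uptake genes for the carriers differed little in the median. All 13 were tested, with a median log2 fold change of -0.25, and at an unadjusted p under 0.05 there were 2 lower and 1 higher, while DESeq2 called 0. The shares over all genes tested were 9.16% lower, 5.45% higher and 2.99% called by DESeq2. Tfrc, the transferrin receptor, had 109 and 142 CPM untreated and 66.6 and 106 CPM with CCCP (log2 fold change -0.54, edgeR adjusted p 0.373). Lrp1, the receptor of hemopexin bound to haem, had 919 and 482 CPM untreated and 628 and 549 CPM with CCCP, and Dab2, an endocytic adaptor, stood at -0.25. Stra6, the receptor of Rbp4, had 69.3 and 57.6 CPM untreated and 82.2 and 84.2 CPM with CCCP (0.39, edgeR adjusted p 0.287). Fcgrt, which recycles albumin, stood at 0.06. The lowest of the 13 were Asgr2 (-3.13, edgeR adjusted p 0.313) and Tfr2 (-1.20, edgeR adjusted p 0.328). Asgr2 had 27 and 14 counts untreated and 0 and 4 with CCCP. Stra6, Fcgrt, Asgr2 and Tfr2 were named after their values were seen.

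Iron and haem genes had small differences in both directions. Of 12 in the list 10 were tested, with a median log2 fold change of 0.18, 1 lower and 2 higher at an unadjusted p under 0.05 and 0 called by DESeq2. Over all genes tested these shares were 9.16%, 5.45% and 2.99%. The ferritin chains Ftl1 and Fth1 stood at 0.55 and 0.40 and the iron sensor Ireb2 at -0.48, with edgeR adjusted p-values of 0.299, 0.277 and 0.229. The iron hormone genes Hamp and Hamp2 had at most 10 counts in any library and were not tested.

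Markers of other tissues that could hold these transcripts were read as whole lists. Epithelial genes shared by liver bud and gut were not lower: all 10 had log2 fold changes between 0.06 and 0.75, and their summed level was 219 and 333 CPM untreated and 309 and 440 CPM with CCCP. Krt8, Krt19 and Cdh1, the most abundant, stood at 0.47, 0.62 and 0.28. Both DESeq2 and edgeR called 0 of the 10, and 1 was higher at an unadjusted p under 0.05, against 5.45% of all genes tested. Yolk sac visceral endoderm genes summed to 13.04 and 11.9 CPM untreated and 6.43 and 4.93 CPM with CCCP; S100g and Spink1 were too low to test. At an unadjusted p under 0.05, 2 of the 7 tested were lower, and DESeq2 called 1 (Apom) as lower, against 9.16% and 2.7% of all genes tested. Among them Apom, which the liver also makes, stood at -3.78 (edgeR adjusted p 0.122), while Cited1 (-0.03) and Slc39a5 (-0.44) overlapped between groups. Gut and pancreas endoderm genes had a median of -0.28, or 0.26 without untreated replicate 2; Sox2, Shh and Sox17 stood at -0.28, -0.50 and -0.09. In that list Nkx2-1, a factor of lung and thyroid endoderm named after its values were seen, had 31 and 39 counts untreated and 0 in each CCCP library. Against a floor of 3 counts per library that was at least 10.05-fold lower.

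Glial and choroid plexus genes, read because Trf and Ttr are also made in nervous tissue, were not lower as a group. Of 8 in the list 6 were tested, with a median log2 fold change of 0.57 and summed levels of 64.2 and 71.0 CPM untreated and 88.4 and 98.6 CPM with CCCP. Sox10, a factor of neural crest and glia, stood at 0.74. DESeq2 called 2 of the list, both higher, where it called 0.297% of all genes higher. The choroid plexus genes Otx2 and Kcnj13 had at most 12 counts in any library. Their part in the level of Trf that was left with CCCP was not tested. Mesothelial and septum transversum genes, with Gpm6a, Wt1 and Bnc1 at -0.40, 0.14 and -0.02, had a median of 0.14. Erythroid genes, with Hba-a1, Alas2 and Hbb-bt at 0.49, 0.60 and 0.16, had a median of 0.33. Stem cell and endothelial genes, with Cdh5, Pecam1 and Kdr at -0.18, -0.19 and -0.31, had a median of -0.31, and -0.08 without untreated replicate 2.

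**Figure D5:**
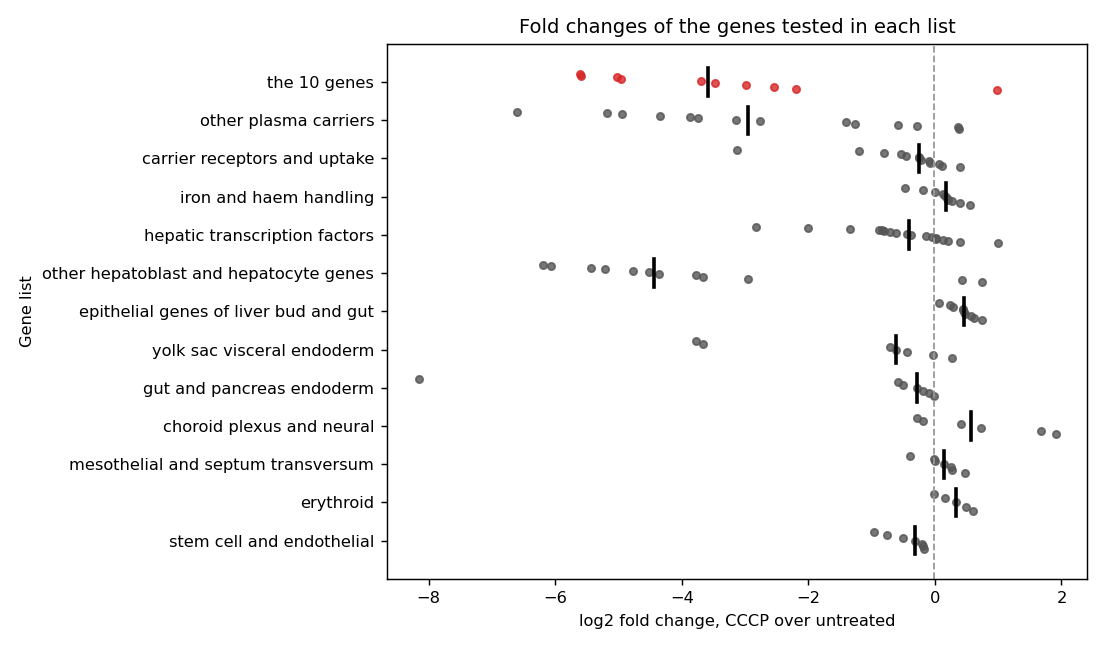
Log2 fold change of CCCP over untreated for each tested gene (points) of the 10 genes and of each list; thick bars are medians and the dashed line is the median of all genes tested. The medians of the 10 genes (-3.59), other plasma carriers (-2.96) and other hepatoblast and hepatocyte genes (-4.44) lie far to the left, and the other medians lie between -0.61 and 0.57.

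The genes whose profile over the 4 libraries came closest to the mean profile of the 10 were Ambp, Serpina1b, Igfbp1, Apoa2 and Serpinc1, in that order. Likeness was the Euclidean distance between log2 CPM profiles, each centred on its mean, over the 12359 other genes with a mean of at least 5 CPM. Those distances ran from 0.252 to 0.844, while the 10 genes themselves lay between 1.03 (Ttr) and 4.48 (Fetub) from their mean. Ambp, the precursor of a small haem-binding carrier, had 29.1 and 19.8 CPM untreated and 0.762 and 2.98 CPM with CCCP. Igfbp1 had 47.3 and 20.3 CPM untreated and 0.742 and 4.00 CPM with CCCP. The edgeR adjusted p-values of the 5 ran from 0.133 for Serpinc1 to 0.177 for Igfbp1. Serpina1b has near-identical copies, and its level is uncertain.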

How the data were processed

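Poly(A) RNA of 4 explant libraries was sequenced. Per the file headers, the authors obtained the deposited raw read counts with featureCounts 2.0.3 over exons of the mm10 RefSeq annotation. HISAT2 and SAMtools are named, without a role, in the submitters' processing notes. The kit keeps strand, per the labels' protocols, but per the file headers neither strand, multi-mapping reads nor read pairs as fragments were requested, so both reads of a pair were counted singly, genes on opposite strands share reads, and counts of near-identical copies are uncertain. Ttr and Ahsg each overlap a predicted gene on the other strand. No row lacked a gene name.

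Counts were scaled to library size (CPM) with TMM factors in edgeR 4.0.16 (R 4.3.3). All genes passing filterByExpr (minimum count 10, minimum total 15) were fitted with glmQLFit and glmQLFTest, two-sided, group as the sole term, with Benjamini-Hochberg adjustment at 0.05; the code was tested on simulated data. Fold changes use a prior count of 0.125. DESeq2 1.42.0, other scalings, no filter, a prior count of 2, the replicate number as a block and leaving out each library were the alternatives. An exact two-sided permutation of 2 against 2 libraries has 0.333 as its smallest p, and none was run. Intervals of counts and of count ratios are exact 95% intervals and cover counting error only; paired reads make them too narrow. The floor was 3 counts, or 0.0599 to 0.0827 CPM.

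The 10 genes and all lists were chosen with earlier results of these data known. The rule for other named genes was the 3 most abundant genes of each list, the nearest tested gene on each side of a member, 5 relatives in the same gene clusters, and the 5 genes whose profile lay closest; all other names were chosen after their values were seen. Some genes and a motif that this rule or the search would name are not reported here.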

Additional observations from a re-analysis of the deposited data

How the results depend on the processing

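The count of genes past the adjusted threshold depended on some choices of processing. It was 0 in edgeR as reported and stayed at 0 with DESeq2 size factors, with total counts alone and with upper quartile scaling, but it was 594 with DESeq2 and 1107 with no filter on low counts. With each library left out in turn it ranged from 10 to 46, where the lone library of a group is assumed to vary like the other group; it was 10 without untreated replicate 1, 46 without untreated replicate 2, 27 without CCCP replicate 1 and 35 without CCCP replicate 2. The cause was not tested. With the replicate number as a block the count was 2118, or 10.7% of all genes tested, 6.88% lower and 3.8% higher. No label says what a replicate number marks, and with 2 pairs the correlation of same-numbered deviations from the group means, 0.43 across genes, is a hint from the data alone. Most of the 10 genes went the other way, with the higher library being replicate 1 untreated and replicate 2 with CCCP. With the block edgeR called 10 lower and 1 higher of the other plasma carriers, 10 lower of the hepatoblast and hepatocyte genes and 5 lower of the regulators. It called 1 lower and 1 higher of the receptors, 1 lower and 2 higher of the iron and haem genes and 4 higher of the epithelial genes. It called 2 lower of the yolk sac genes, 2 lower of the stem cell and endothelial genes, 1 lower each of the gut and mesothelial genes, and 2 higher each of the choroid plexus and erythroid genes. The block moved the log2 fold change of Alb to -5.95, of Afp to -5.92 and of Fetub to 0.89.

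Each of the 10 genes kept the sign of its fold change in 11 of 11 alternatives. For none of the 10 genes did the groups overlap, so leaving out a library left little room for another sign. The genes were also chosen from these values, so nothing is read from the kept signs. A prior count of 2 moved Spp2 to -4.73, and leaving out CCCP replicate 2 moved Rbp4 to -3.105 and Hpx to -3.50. Depth limits Gc, Spp2, Fetub and Hpx most, with at most 34 counts in a CCCP library.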
